A study of Homo sapiens with 4 samples.

Results

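SMARCA4, SMARCA2, SMARCC1, SMARCC2, SMARCB1, SMARCE1, SMARCD1, SMARCD2 and SMARCD3 encode the ATPases and the core scaffold of the BAF (mammalian SWI/SNF) chromatin remodelling complexes. These 9 genes were taken by name, not by a measured value, from a table of 63241 genes, and each had 1 row there. All 9 passed the filter on low counts that left 18781 genes for testing.

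RNA was sequenced from FT190, a cultured human line that the labels call an ovarian epithelial cell of WT genotype and that is known as immortalised fallopian tube secretory epithelium. The 2 control libraries came from cells with the PLKO vector, and 2 libraries came from cells given the treatment SMARCA4_sh1, a single short hairpin RNA (shRNA) against SMARCA4. Both groups were grown in the same serum-containing RPMI medium, and whether replicates were separate cultures is not stated: the p-values then cover variation among the 4 libraries alone, possibly technical. The comparison asks which transcripts differ when SMARCA4 is depleted.

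A BAF complex moves or evicts nucleosomes with energy from ATP. Each assembly holds a single ATPase, either SMARCA4 (BRG1) or its paralog SMARCA2 (BRM), so these are alternatives for the same position. SMARCC1 and SMARCC2 are scaffold subunits that pair with each other or with themselves and start assembly together with a SMARCD protein, for which SMARCD1, SMARCD2 and SMARCD3 are alternatives. SMARCB1 contacts the nucleosome acidic patch and SMARCE1 is an HMG-box DNA-binding subunit; neither has a paralog in the complex, and the non-canonical assembly lacks both. Loss of SMARCA4 together with silencing of SMARCA2 is the hallmark of small cell carcinoma of the ovary, hypercalcaemic type.

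Total counts per library were between 27137414 and 33641343. PAX8, a Müllerian secretory marker, stood between 57.4 and 63.5 CPM (counts per 1000000 of the scaled library total), and KRT7, KRT8 and KRT18 were abundant. EPCAM, KRT19 and OVGP1 were under 1 CPM in every library, and FOXJ1, the marker of ciliated cells, had no count in 3 of 4. The summed level of 10 secretory and epithelial markers was 1776 and 1874 CPM in controls and 1275 and 1278 CPM in shSMARCA4 libraries, with 1 marker higher and 4 lower. That of 8 fibroblast and mesenchymal markers, led by VIM and COL1A1, was 5022 and 5098 CPM against 3979 and 4117 CPM, with 5 lower. COL1A2 and DCN, both in that list, were under 1 CPM in every library, and PDGFRA was between 1.34 and 1.80 CPM. Of these markers 7 of 10 and 6 of 8 reached 1 CPM in every library. The calls come from the edgeR test given below, by which 15.8% of all genes tested were lower and 13.8% higher. Among genes averaging 20 CPM or more, 22.6% were lower. Sums of 5 endothelial markers (0.967 to 1.23 CPM) and 5 immune markers (23.2 to 25.6 CPM, nearly all CD68) covered similar ranges in both groups. So did that of 4 ciliated markers (6.77 to 7.39 CPM, nearly all DNAH5). Of the immune markers 1 was lower. The part of these marker shifts in the results on BAF genes was not tested. In bulk RNA, fewer cells of a type and less RNA per cell cannot be told apart.

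Paralogs can only be compared if their reads are told apart, so the longest stretch that each pair shares base for base is shown first. These runs, 5′ to 3′ on the coding strand of GENCODE release 29 transcripts (hg38), all lie in the coding part.
SMARCA4 with SMARCA2, chr19:10991264-10991289: gagaagctggagaagcagcagaagat
SMARCC1 with SMARCC2, chr3:47710753-47710775: ttcaatgaatggatgaatgagga
SMARCD1 with SMARCD2, chr12:50086789-50086808: atggatctcttggcttttga
SMARCD2 with SMARCD3, chr17:63833912-63833931: attgtcatcaaccatgtcat
The run was 26 bases for the ATPases, 23 for the SMARCC pair and 18 to 20 within the SMARCD genes. No 50-base window of a member occurred in its paralog, so a read of that length or longer would not match a pair equally well.

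Other genes share more. SMARCE1 (ENSG00000073584.20, chromosome 17, 40627467 to 40647855, minus strand) lies within a second gene entry on the same strand, ENSG00000264058, whose counts were 96.3% to 97.8% of those of SMARCE1. The reads of these entries cannot be separated. Of the SMARCB1 transcript (ENSG00000099956.20, chromosome 22, 23786966 to 23838009, plus strand), 54.7% of 50-base windows also fall in transcripts of DERL3, a gene on the opposite strand that overlaps its end. DERL3 itself had only 27 to 32 counts per library, against 2833 to 3169 for SMARCB1. SMARCC2 (ENSG00000139613.12, chromosome 12, 56162359 to 56189483, minus strand) shared 2.95% of its windows with MYL6, a gene at 899 and 847 CPM in controls and 614 and 624 CPM in shSMARCA4 libraries. Those windows are of the 4114-base release 29 form of SMARCC2, whereas its reads were counted over 5033 bases. Whether MYL6 reads entered the SMARCC2 count was not tested. Counting ignored strand, so reads from opposite genes add up where exons overlap.

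Of the 9 genes, 2 rose and 5 fell (edgeR quasi-likelihood test, adjusted p under 0.05 over all genes tested), and 2 did not pass. Across all genes tested 29.7% passed, 13.8% as higher and 15.8% as lower. Of the 9 members 8 averaged 20 CPM or more, and among all genes at that level 43.3% passed and 22.6% passed as lower. The groups did not overlap in 8 of 9 members, against 65.9% of all genes and 6142 of the 8054 more abundant ones. An unadjusted p under 0.05 was found for 8 of 9, for 7654 of all 18781 genes and for 4419 of the 8054 averaging 20 CPM or more. The median log2 fold change was -0.21 over the 9, -0.16 without SMARCA4 and -0.0045 over all genes tested. The 5 that fell were SMARCA4, SMARCC1, SMARCD3, SMARCD1 and SMARCA2, in order of size, and SMARCB1 and SMARCD2 rose. The number past the test was 5 with DESeq2 and 4 when low counts were not filtered.

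**Figure D1:**
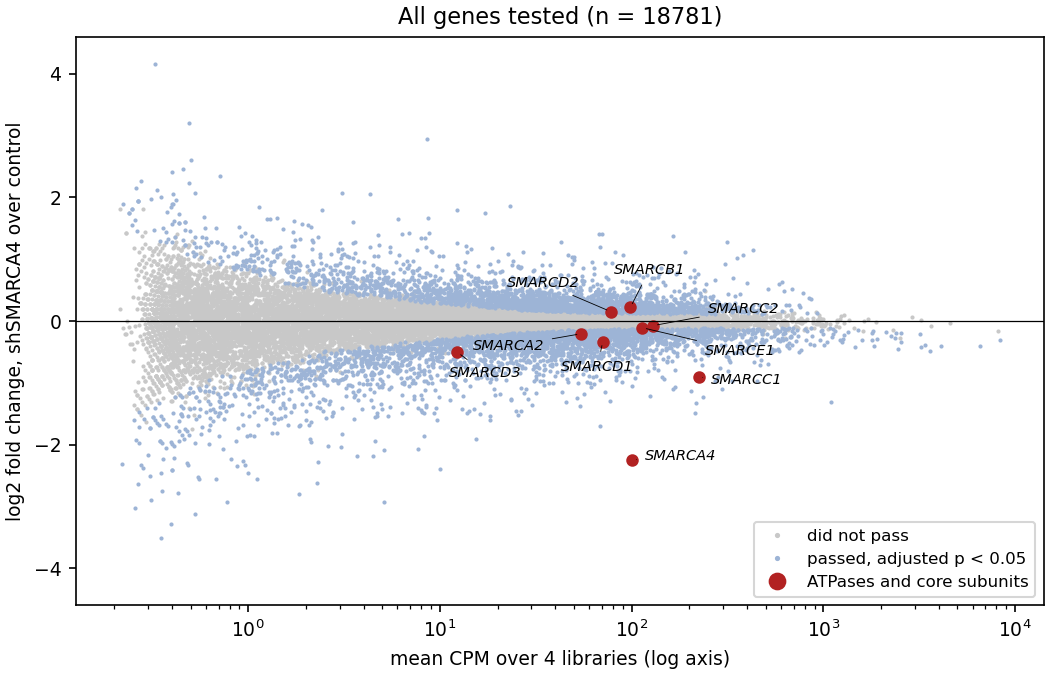
Log2 fold change of shSMARCA4 over control (y axis) against mean CPM over 4 libraries (x axis, log scale) for 18781 genes; grey points did not pass, light blue points passed, and red circles are the 9 BAF genes. SMARCA4, at -2.24, lies below all other genes averaging 20 CPM or more, while most of the other 8 lie within the dense band around 0.

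SMARCA4 (ENSG00000127616.22, chromosome 19, 10961030 to 11062273, plus strand) is the gene that the hairpin targets. The control libraries had 5605 and 5240 of its reads, or 171 and 162 CPM, and the shSMARCA4 libraries 985 and 1003, or 34.0 and 36.3 CPM. The target was thus lower in both libraries labelled with the hairpin, at 21.1% of the control level. The log2 fold change of -2.24 (SE 0.052) was the lowest of 8054 genes averaging 20 CPM or more, and 32nd lowest of all genes tested.

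SMARCA2 (ENSG00000080503.25, chromosome 9, 2015347 to 2193620, plus strand), the alternative ATPase, was at 57.5 and 59.1 CPM in controls and 50.2 and 50.8 CPM in shSMARCA4 libraries. It was therefore slightly lower in both hairpin libraries, with no overlap. It fell by 0.21 on the log2 scale (SE 0.047), to 86.7% of control, with adjusted p = 0.0104. Among alternatives that kept all 4 libraries, this call was lost with DESeq2 (adjusted p = 0.0771) and with no filter (0.0515). With a library left out the log2 fold change ran from -0.22 to -0.19. The 95% interval of the difference, -0.31 to -0.10, holds no value above 0. The antisense gene SMARCA2-AS1, inside SMARCA2, had 6 to 13 counts per library, against 1403 to 1906 for SMARCA2.

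Paralogs differ in length, so shares were taken per kilobase of the transcript in the table (5508 bases for SMARCA4 and 5681 for SMARCA2). SMARCA2 made up 24.6% and 26.1% of ATPase transcripts in the controls and 58.9% and 57.6% in the shSMARCA4 libraries. Its mean share was 25.3% ± 1.05 in controls and 58.2% ± 0.937 with the hairpin (SD, n = 2). The order of the paralogs was thus reversed: SMARCA4 exceeded SMARCA2 by 2.95 times in controls and was 0.718 times as abundant in shSMARCA4 cells. SMARCA2 gained share while its own level was lower, since its transcripts per kilobase went from 10.3 to 8.89 CPM and those of SMARCA4 from 30.3 to 6.39 CPM. The share shifted by 32.9 percentage points, and by 31.8 to 33.6 with other lengths or with a library left out. SMARCA2 was ahead of SMARCA4 in both hairpin libraries under each length used. For 2 libraries against 2 an exact permutation test cannot give a two-sided p below 0.33, which is its value for every share and ratio whose groups do not overlap.

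**Figure D2:**
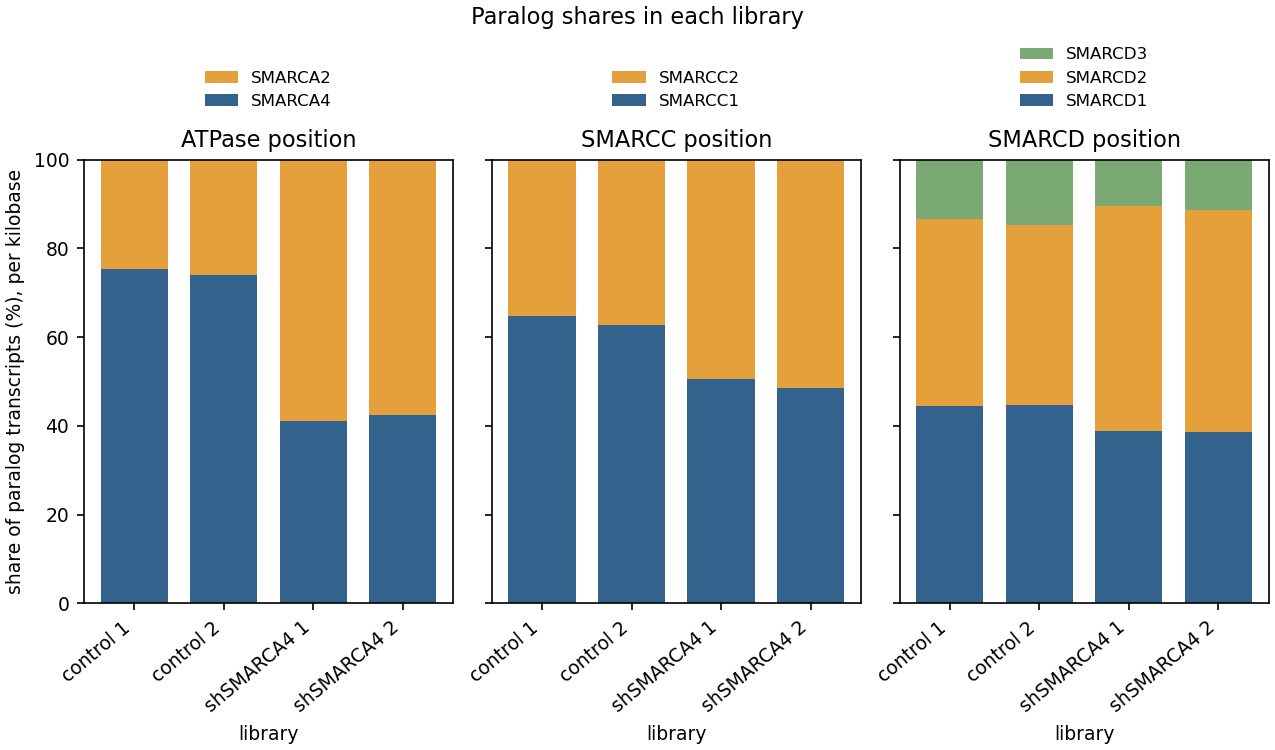
Share of each paralog (percent, y axis) among the transcripts for the same position in the complex, per kilobase of transcript, for each of 4 libraries (x axis). SMARCA2 passes from 25.3% to 58.2% of ATPase transcripts on average, SMARCC1 and SMARCC2 become about equal, and SMARCD2 gains on SMARCD1 and SMARCD3.

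SMARCC1 (ENSG00000173473.11, chromosome 3, 47585269 to 47781893, minus strand) had the highest CPM of the 9 in control cells and fell most after SMARCA4. Control libraries held 291 and 292 CPM of it and shSMARCA4 libraries 158 and 152 CPM, tight within each group and far apart between them. The log2 fold change was -0.91 (SE 0.041, adjusted p = 3.04e-06), a level 1.88-fold lower. Among genes averaging 20 CPM or more it ranked 55th lowest of 8054. Under 13 alternatives the value stayed between -0.93 and -0.86, and it passed in each that kept all 4 libraries.

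SMARCC2, its paralog, was at 127 and 140 CPM in controls and 124 and 129 CPM in shSMARCA4 libraries, and the groups overlapped. Its log2 fold change of -0.07 (SE 0.053, adjusted p = 0.343) did not pass, and the 95% interval was -0.19 to 0.05. With a library left out it ran from -0.14 to -0.0034. Alternatives that kept all 4 libraries gave adjusted p-values from 0.186 (replicate block) to 0.776 (library totals alone). The interval of SMARCC2 lies wholly above that of SMARCC1, which ends at -0.82.

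As SMARCC1 fell, the share of SMARCC2 went from 35.3% and 37.4% of SMARCC transcripts in controls to 49.5% and 51.5% in shSMARCA4 libraries. SMARCC1 exceeded SMARCC2 by 1.83 and 1.67 times per kilobase in the controls, and the ratio was 1.02 and 0.940 with the hairpin. Transcripts of the 2 scaffold paralogs were therefore near parity in shSMARCA4 cells. The shift of 14.2 points ranged from 13.2 to 15.2 over the alternatives. Which paralog led in shSMARCA4 cells depends on the length used: SMARCC2 held 44.9% of the reads with no length correction and 54.9% with the longest release 29 transcripts. That release 29 length of SMARCC2, 4271 bases, is shorter than the 5033 bases its reads were counted over, which raises its value.

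**Figure D3:**
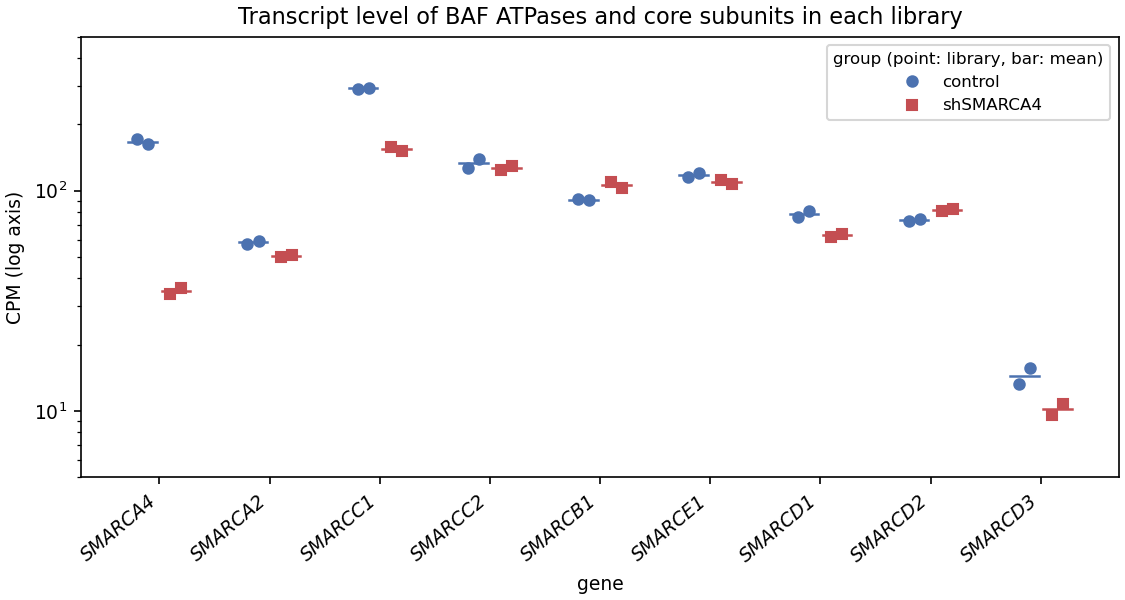
Level of each of the 9 genes (CPM, log axis) in 2 control libraries (blue circles) and 2 shSMARCA4 libraries (red squares), with a bar at each group mean. SMARCA4 and SMARCC1 show the widest gaps, SMARCC2 is the gene whose groups overlap, and SMARCB1 and SMARCD2 are higher in the red libraries.

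SMARCB1, the nucleosome-anchoring subunit whose loss defines rhabdoid tumours, was at 91.4 and 90.6 CPM in controls and 109 and 103 CPM in shSMARCA4 libraries. It rose by 0.22 on the log2 scale (SE 0.046, adjusted p = 0.00700), with a 95% interval of 0.12 to 0.33. Among alternatives that kept all 4 libraries, the call was lost with no filter (adjusted p = 0.0581). With a library left out the rise ran from 0.18 to 0.27. SMARCE1, the HMG-box subunit, was at 115 and 120 CPM in controls and 112 and 107 CPM with the hairpin, lower in both. Its log2 fold change of -0.11 (SE 0.046, adjusted p = 0.108) did not pass, with a 95% interval of -0.21 to -0.0048. With a library left out it ran from -0.13 to -0.075. Among alternatives that kept all 4 libraries the lowest adjusted p was 0.0727 (replicate block). Its value includes any reads of the read-through entry that covers it.

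The SMARCD genes, whose proteins link the complex to transcription factors, moved in different directions. SMARCD1 (ENSG00000066117.15, chromosome 12, 50085342 to 50100707, plus strand) had 76.3 and 81.2 CPM in controls and 61.8 and 63.4 CPM in shSMARCA4 libraries. It fell by 0.33 on the log2 scale (SE 0.049, adjusted p = 0.00119), and it passed under every alternative that kept all 4 libraries.

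SMARCD2 (ENSG00000108604.18, chromosome 17, 63832090 to 63842562, minus strand), best known for its role in granulocyte development, was at 73.0 and 74.1 CPM in controls and 81.3 and 82.4 CPM with the hairpin. It rose by 0.15 (log2, SE 0.043, adjusted p = 0.0257), the smallest difference among the 7 that passed. Among alternatives that kept all 4 libraries, the call was lost with DESeq2 (adjusted p = 0.131) and with no filter (0.0818). With a library left out the rise ran from 0.14 to 0.17.

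SMARCD3 (ENSG00000082014.17, chromosome 7, 151238780 to 151248694, minus strand), the isoform known from heart and muscle, was the least abundant member at 13.3 and 15.6 CPM in controls and 9.63 and 10.8 CPM with the hairpin. It fell by 0.50 (log2, SE 0.11, adjusted p = 0.00735) and passed under every alternative that kept all 4 libraries. Over all 13 alternatives its value ran from -0.61 to -0.39. CHPF2, a gene on the opposite strand with 1301 to 1508 counts per library, overlaps the locus of SMARCD3 by 43 bases at its end. A long non-coding RNA on the opposite strand inside SMARCD3, ENSG00000272661, had 100 and 110 counts in controls and 52 and 51 in shSMARCA4 libraries, against 437, 503, 279 and 297 for SMARCD3. If every read of it were also counted in SMARCD3, taking them off would leave a log2 difference of -0.42, with no overlap between groups.

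Per kilobase, SMARCD1 made up 44.4% and 44.7% of SMARCD transcripts in controls and 38.8% and 38.7% in shSMARCA4 libraries. SMARCD2 went from 42.2% and 40.5%, on average 41.4%, to a mean of 50.4% ± 0.558 (SD, n = 2), and SMARCD3 from 13.4% and 14.8% to 10.5% and 11.4%. SMARCD1 and SMARCD2 were near equal in controls, with a ratio of 1.05 and 1.10, and SMARCD2 led in shSMARCA4 cells, with a ratio of 0.764 and 0.775. No share overlapped between groups. Which of SMARCD1 and SMARCD2 leads in controls depends on the length used: with the longest release 29 transcripts SMARCD2 held 49.6% there and SMARCD1 39.4%. That release 29 length of SMARCD2, 2716 bases, is shorter than the 3277 bases counted, whose transcript is absent from release 29.

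When the counts of alternatives for a position were summed and fitted as 1 row, the ATPase position fell from 228 and 222 CPM to 84.2 and 87.2 CPM (log2 fold change -1.39, SE 0.043, adjusted p = 7.56e-07). The SMARCC position fell from 417 and 432 CPM to 282 and 281 CPM (-0.59, SE 0.039, adjusted p = 1.82e-05). The SMARCD position went from 163 and 171 CPM to 153 and 157 CPM (-0.11, SE 0.043, 95% interval -0.21 to -0.01) and did not pass (adjusted p = 0.0880). The SMARCD position passed with the replicate block (adjusted p = 0.0405). With a library left out its log2 fold change ran from -0.14 to -0.0741. This sum holds the falls in SMARCD1 and SMARCD3 and the rise in SMARCD2. All these values are of transcripts: protein levels and the make-up of the complexes were not measured.

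Set against SMARCB1, which has no paralog, each summed position was lower with the hairpin. On values per kilobase the log2 difference of the ratio was -1.63 for the ATPases, -0.77 for SMARCC, -0.35 for SMARCD and -0.33 for SMARCE1, and no ratio overlapped between groups. Part of each is the rise of SMARCB1 itself.

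Ordered by level per kilobase, control cells ran from SMARCC1 (46.3 ± 0.192 CPM per kilobase, SD, n = 2) through SMARCA4 (30.3 ± 1.09), SMARCC2 (26.5 ± 1.79), SMARCD1 (24.2 ± 1.07), SMARCD2 (22.5 ± 0.234), SMARCB1 (17.6 ± 0.107), SMARCE1 (13.9 ± 0.416) and SMARCA2 (10.3 ± 0.199) to SMARCD3 (7.68 ± 0.851). No neighbours in that order overlapped in their libraries. In shSMARCA4 cells SMARCC2 (25.1 ± 0.716), SMARCD2 (25.0 ± 0.236) and SMARCC1 (24.6 ± 0.710) led, and each of these overlapped with the next. SMARCB1 (20.5 ± 0.923), SMARCD1 (19.2 ± 0.358), SMARCE1 (12.9 ± 0.424), SMARCA2 (8.89 ± 0.0753), SMARCA4 (6.39 ± 0.300) and SMARCD3 (5.42 ± 0.424) followed, apart from each other. SMARCA4 passed from rank 2 to rank 8, below SMARCA2. The order depends on the lengths: with the longest release 29 transcripts, tried after the data were seen, SMARCA4 had rank 3 in controls at 28.8 CPM per kilobase, behind SMARCC2 at 31.2, and again rank 8 with the hairpin. On those lengths SMARCD2 (27.1) also stood above SMARCD1 (21.5) in controls. For SMARCC2 and SMARCD2 those lengths are shorter than the forms counted, which raises their values per kilobase. The lengths behind SMARCB1 (5174 bases) and SMARCE1 (8451 bases) are those of long forms: in release 29 the SMARCB1 transcript has 1158 coding bases and a 3′ untranslated region (UTR) of 3828 bases, and the SMARCE1 transcript is annotated as a retained intron. Which forms these cells use was not tested, and the places of both genes in the order rest on these lengths.

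**Figure D4:**
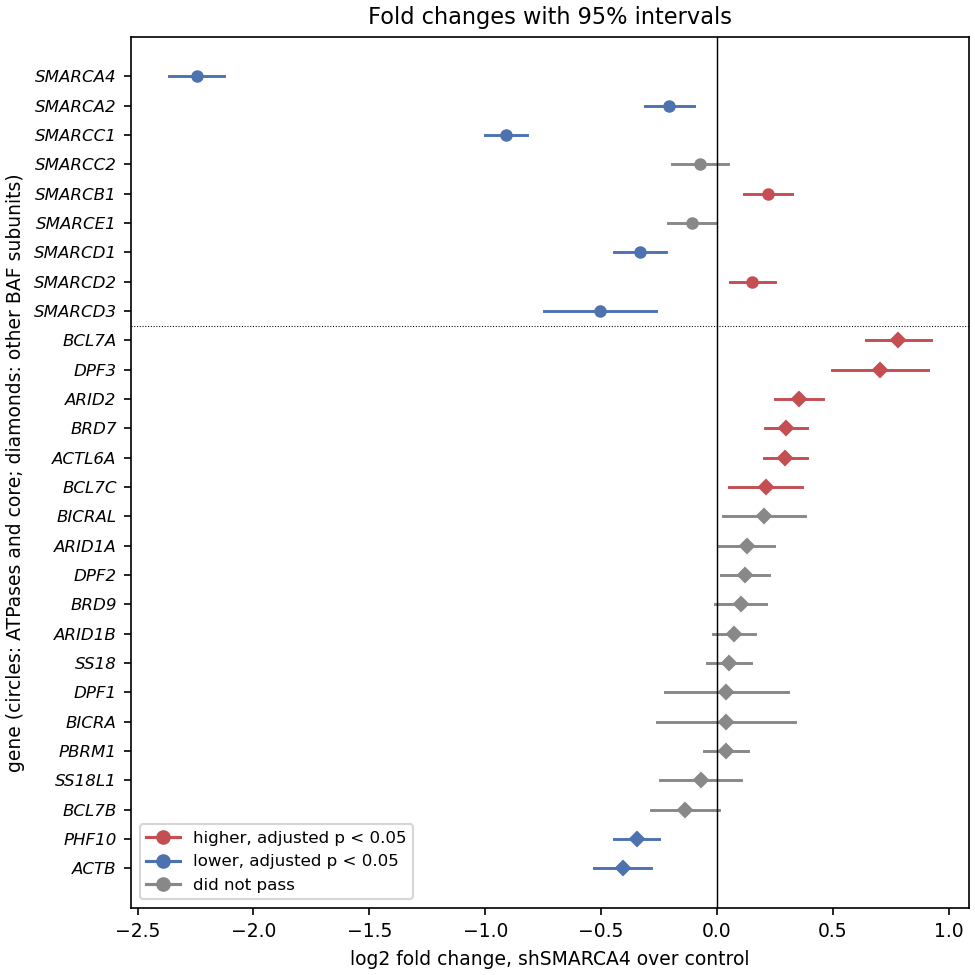
Log2 fold change of shSMARCA4 over control (x axis) with its 95% interval for the 9 BAF ATPase and core genes (circles) and 19 other BAF subunits (diamonds), coloured by call. SMARCA4 and SMARCC1 lie far to the left, while 6 of the other subunits, led by BCL7A and DPF3, lie to the right past the test.

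The remaining subunits give the frame for these values. Of 20 other BAF subunits 19 were tested, since the neuronal ACTL6B had no count, and 6 rose, 2 fell and 11 did not pass. These 8 of 19 stand beside 29.7% of all genes tested and 43.3% of genes averaging 20 CPM or more. Their median log2 fold change was 0.10, against -0.0045 over all genes tested and -0.21 over the 9. BCL7A (0.78, SE 0.062) and the histone reader DPF3 (0.70, SE 0.091) rose most, followed by ARID2 (0.35, SE 0.046), BRD7 (0.30, SE 0.040), ACTL6A (0.29, SE 0.041) and BCL7C (0.21, SE 0.070, adjusted p = 0.0487). Among alternatives that kept all 4 libraries, the call of BCL7C was lost with no filter, DESeq2 or limma-voom. With a library left out its value ran from 0.14 to 0.28. ARID2 and BRD7 are subunits of the PBAF assembly, as is PHF10, which fell (-0.35, SE 0.044). ACTB, the actin that also serves as a subunit, fell as well (-0.41, SE 0.055).

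ARID1A, the DNA-binding subunit of canonical BAF, was at 0.13 (SE 0.053, 95% interval 0.01 to 0.25, adjusted p = 0.104). It was called with the replicate block and with 2 other scalings, and with a library left out it ran from 0.05 to 0.21. ARID1B (0.07, -0.02 to 0.17), PBRM1 of PBAF (0.04, -0.05 to 0.13) and BRD9 of the non-canonical assembly (0.10, -0.01 to 0.21) did not pass, each given with its 95% interval. The number of other subunits past the test was 8, and 13 with scaling by library totals alone, 11 of them higher.

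Other remodellers also carry ATPases of the Snf2 family. Of 27 Snf2-family ATPases outside BAF, all tested, 7 rose, 1 fell and 19 did not pass, against 29.7% passing over all genes tested and 43.3% of those averaging 20 CPM or more. Their median log2 fold change was 0.07. CHD7 (0.59, SE 0.079), the ISWI ATPase SMARCA5 (0.40, SE 0.038) and CHD9 (0.36, SE 0.040) rose most, and CHD4, the NuRD ATPase, fell (-0.30, SE 0.037). SMARCA5 stood at 226 and 229 CPM in controls and 298 and 304 CPM with the hairpin, with no overlap between groups. SMARCA1, its paralog, was at -0.06 (95% interval -0.21 to 0.09) and did not pass. The count of 8 was 5 with no filter and 11 with scaling by library totals alone.

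Some members carry short words that a search of 3′ UTRs in these same libraries had linked with lower transcript levels, ATAGTGA and the overlapping TAGTGAA and GATAGTG, searched on the sense strand. At least 1 of them occurs in the 3′ UTR of 20.2% of 10475 protein-coding genes that average 5 CPM or more and have a 3′ UTR of 50 bases or longer. The median log2 fold change was -0.05 in those genes, 31.8% of which fell, and 0.02 in the 67.3% of genes with no match in UTR or coding part, 17.3% of which fell. In the 12.5% with a match in the coding part only, the median was -0.0092, and 23% fell and 19.2% rose. Of all 10475 genes 21% fell and 19.2% rose. These groups were not matched for the length of the UTR or coding part. Since the words were picked for an association with lower levels, these values are a description. The matches of SMARCA4 and SMARCC1 and those in the 3′ UTR of SMARCA2 and SMARCD1 are shown 5′ to 3′ with 8 bases on either side, the matching bases in capitals, from release 29 (hg38).
SMARCA4, coding, chr19:11003354-11003378, plus strand: cgaggtctGATAGTGAAgaaagtgg
SMARCC1, coding, chr3:47693270-47693294, minus strand: taaagaaaGATAGTGAAaatacacc
SMARCC1, coding, chr3:47636054-47636077, minus strand: tgaaaaaaATAGTGAAaaggaaca
SMARCC1, coding, chr3:47636036-47636060, minus strand: aggaacagGATAGTGAAgtgagtga
SMARCC1, 3′ UTR, chr3:47587214-47587236, minus strand: aaaaagtaGATAGTGctaaatat
SMARCA2, 3′ UTR, chr9:2192862-2192884, plus strand: agctttagGATAGTGccagacaa
SMARCD1, 3′ UTR, chr12:50099253-50099275, plus strand: gacctctaGATAGTGttagagag
SMARCC1 thus holds 4 matching places in 3318 coding bases and a 3′ UTR of 2937 bases. Of these, 2 carry the 9-base word found in the coding part of SMARCA4. The 3′ UTR matches, in SMARCC1, SMARCA2 and SMARCD1, are to GATAGTG alone. SMARCD3 has no match in its 3′ UTR or coding part. SMARCD2 and SMARCA2 each have 1 match in the coding part, not shown. SMARCC2 and SMARCB1 have none in either part, nor does SMARCE1 in these parts of the coding transcript examined. A TAGTGAA match in that SMARCE1 transcript, not shown, lies outside both parts. The hairpin sequence is not given in the sources used here, and the part of these matches in the lower levels was not tested.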

How the data were processed

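The members and gene lists were chosen with earlier results of these data known. Raw counts per gene for 4 libraries (2 control, 2 shSMARCA4) were deposited by the authors; per the file headers they were made with HOMER analyzeRepeats over exons of GENCODE release 45 (hg38), on both strands, with 1 transcript per gene and no normalization. The header command names 6 libraries; columns for the 4 samples were analysed here. Per the submitters' processing notes, STAR 2.6.1c and DESeq2 1.19.38 were also used. Transcript lengths, the other deposited value used, come from the same table.

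Genes were kept by filterByExpr (count minimum 10), scaled by trimmed means of M values and tested in edgeR 4.0.16 (R 4.3.3) with glmQLFit and glmQLFTest, two-sided, with Benjamini-Hochberg adjustment over 18781 genes and a threshold of 0.05. SE is the absolute log2 fold change over the square root of F, and intervals are 95%. The biological coefficient of variation was 0.0413. CPM were computed from the counts on scaled totals. Shares use CPM per kilobase. The test was checked on simulated data. Alternatives were other scaling, filters, DESeq2 1.42.0, limma-voom (limma 3.58.1), protein-coding genes alone, a replicate block, other lengths, and leaving out each library. Leaving out a library left 1 in its group, so the spread in that fit came from the other group's pair alone. Calls under such fits rest on that pair. The replicates of a group differed by more than counting noise: chi-square over its degrees of freedom was 6.33 in controls and 1.88 in shSMARCA4. The main fit used the same dispersion of a gene for both groups.

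Named genes were the 9 members, ARID1A, ARID1B, ARID2, PBRM1, BRD9, every other BAF subunit past the threshold, the 3 largest rises and falls past it among Snf2-family ATPases, the genes most like SMARCA4 and SMARCC1 in pattern, and genes overlapping a member. SMARCA1, MYL6, ACTL6B, DPF1, BICRA, SS18L1 and the markers were named after their values were seen.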

Additional observations from a re-analysis of the deposited data

How the results depend on the processing

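SMARCA4 (log2 fold change -2.29 to -2.19), SMARCC1, SMARCD1 and SMARCD3 and the summed ATPase (-1.42 to -1.34) and SMARCC (-0.61 to -0.54) positions kept their direction under all 13 alternatives. They kept their call under each alternative that kept all 4 libraries. The number of genes past the test, 5572, was 3187 when low counts were not filtered and 3355 with DESeq2; genes that rose were 46.6% of them, and 59.5% with library totals alone. With no filter 4 members and 5 Snf2-family ATPases passed. Left-out libraries gave 4 to 9 members (4 without shSMARCA4 library 1), 6 to 13 Snf2-family ATPases and, for the summed SMARCD position, -0.14 to -0.0741. With library totals 13 other BAF subunits passed. The share of SMARCA2 moved by 31.8 points with the longest annotated transcript or the longest coding one (the latter added after seeing the data), and that of SMARCD3 by -2.06 points with no length correction, against -3.21. With a library left out, DPF1 (-0.0517 to 0.146; -0.0517 without control 2, -0.00994 without shSMARCA4 1), BICRA (-0.129 to 0.201; -0.129 without shSMARCA4 2) and SS18L1 (-0.143 to 0.00517; 0.00517 without shSMARCA4 2) changed sign; they passed in none of the 13 alternatives. The cause of these changes was not tested.

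The replicate numbers are shared by the groups, but the labels do not say that they pair the libraries; deviations of same-numbered libraries correlated at 0.08 over all genes and 0.32 over genes averaging 20 CPM or more. With the replicate block 6749 genes, 7 members, 10 other BAF subunits and 9 Snf2-family ATPases passed, and the summed SMARCD position (-0.11) passed. SMARCD3, with the fewest counts of the 9 members (279 to 503), has the widest interval; the effect of depth on the calls was not tested.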

Other observations

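Over the 4 libraries, the genes whose pattern was nearest to that of SMARCA4 were AIF1L, EPPK1 and CNN1, by Euclidean distance between centred log2(CPM + 0.1) values among 10877 protein-coding genes averaging 5 CPM or more. CNN1, a smooth muscle calponin, was at 19.1 and 14.4 CPM in controls and 3.49 and 2.90 CPM in shSMARCA4 libraries. AIF1L, an actin-binding protein, was at 24.9 and 24.0 CPM against 6.25 and 6.70 CPM, and EPPK1, a plakin, at 14.3 and 10.5 CPM against 3.00 and 2.86 CPM. Their distances were 0.341 to 0.359. The nearest to SMARCC1 were MOCOS, which matures the molybdenum cofactor (11.6 and 11.5 CPM against 6.38 and 6.12 CPM), PDXP (15.7 and 15.8 CPM against 8.46 and 8.44 CPM) and the chondroitin sulfotransferase CHST11 (64.3 and 65.2 CPM against 34.8 and 34.8 CPM), at distances of 0.0385 to 0.0460. With 4 libraries in 2 groups, this likeness mostly restates a similar fold change between groups.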
